A study of Bombyx mori with 3 samples.

Results

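Purine and pyrimidine metabolism in the silkworm fat body, with the xanthine dehydrogenases that make uric acid, was read from 88 of the 23229 gene probes of a two-colour array. A probe was taken where its description named one of these enzymes or a nucleoside, nucleotidase, uridine or thymidylate term, and transporters and tRNA genes were left out. Of the 88 probes, 67 describe enzymes of nucleotide metabolism and 21 were matched by wording alone, such as pseudouridine synthases and Nudix hydrolases. The files' KEGG column placed 37 of the 88 in purine or pyrimidine metabolism, and 17 probes carried a gene ID, for 13 genes. Most names are therefore similarities to a protein of another species, as the files give them.

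Fat body RNA of Bombyx mori larvae of strain p50, both sexes mixed, was compared after larvae had fed on mulberry leaves dipped in 4 µg/mL phoxim or in water. Phoxim is an organophosphate, a kind of insecticide that inhibits acetylcholinesterase. Feeding started on day 3 of the last larval instar, fat bodies were dissected 24 h later, and each of 3 experiments used 30 larvae. Each of the 3 arrays carried phoxim RNA and control RNA of 1 replicate number, so n = 3 arrays throughout, and precision is limited by this number.

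The fat body of insects stores nutrients and handles much of intermediary metabolism, including the making of uric acid, the main nitrogen waste of insects. Purine rings are built in many steps on phosphoribosyl pyrophosphate (PRPP) up to IMP, from which AMP and GMP are made, and xanthine dehydrogenase oxidises hypoxanthine and xanthine to uric acid. Pyrimidines are built from carbamoyl phosphate and aspartate by way of orotate to UMP. In silkworm larvae, uric acid made in the fat body is also deposited as granules in the epidermis, which makes the skin opaque, and mutants without xanthine dehydrogenase activity have translucent skin.

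By the labels phoxim RNA carried the dye Cy5 throughout, but the header of the replicate 2 file names Cy3 for it. This header was taken as right. Each ratio given is the log2 of phoxim over control after normalization within the array. Intensities are given as deposited, before that normalization, and carry the difference between the dyes, so a ratio can have another sign than the intensities it comes from. Of 23229 gene probes, 6154 (26.5%) were bright enough to be tested. No probe had an adjusted p under 0.05 with limma (percent called 0), and the smallest adjusted p was 0.28. At an unadjusted p under 0.05 stood 673 probes, or 10.9%. The p-values measure the spread between these 3 arrays.

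Markers of muscle, a tissue that can come along in dissection, mostly had ratios above 0, with none called. Of 55 muscle probes, 27 were measured, with medians of 2.13, 0.05 and 0.52 in replicates 1, 2 and 3, and 13 were higher in phoxim RNA on all 3 arrays. Their summed intensity was 154546, 91285 and 112081 in phoxim RNA, against 27137, 80198 and 30685 in control RNA. Fat body markers (storage proteins, lipophorin, the 30K proteins), with 35 of 60 probes measured, had medians of 0.75, -0.10 and 0.23. Their sums were 717346, 470015 and 776314 in phoxim RNA and 467353, 575423 and 482503 in control RNA. The tissue label thus had its markers in both RNAs. Hemocyte markers, with 8 of 19 probes measured, had medians of 1.27, -0.24 and 0.17, and sums of 7530, 4557 and 5204 in phoxim RNA against 2528, 5272 and 3383 in control RNA. Epidermis markers, with 22 of 100 measured, had medians of 0.46, -0.34 and 0.29. Their sums were 32394, 26345 and 40967 in phoxim RNA against 21650, 72939 and 18636 in control RNA. By the headers, the Cy5 sum was above the Cy3 sum on each array for epidermis, fat body and hemocyte markers. For muscle markers this was so in replicates 1 and 3 only. In replicate 2 the RNA, the dye and the dye order taken thus cannot be told apart in these sums. Malpighian tubule markers (2 of 8 measured) had medians of 0.19, -0.98 and -0.66, and silk gland markers (3 of 11) 0.33, -0.51 and -0.80. Midgut markers (8 of 39) gave 0.20, -0.14 and -0.05, and gonad markers (19 of 55) 0.20, -0.25 and -0.11. The part of these tissues in the ratios below was not tested. In RNA of a whole organ, fewer cells of a type and less RNA per cell cannot be told apart.

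Of the 88 probes, 43 (48.9%) were measured. Of the 45 others, 19 were above the background of the blank spots in none of the 6 channels and 26 in some. Among the 43, 0 had an adjusted p under 0.05 with limma and their adjusted p ran between 0.28 and 0.99. At an unadjusted p under 0.05 there were 6 (14%), against 10.9% of all tested probes. Of these 6, 3 were higher in phoxim RNA, with 6.13% as the share over all probes, and 3 were lower, with 4.81%. The mean ratio was above 0 for 20 members and below 0 for 23, with a median of -0.05 against 0.00 over all tested probes. Without the probes matched by wording, 31 were measured, and 3 of them were at an unadjusted p under 0.05, all lower in phoxim RNA. Their mean ratio was above 0 for 13 and below 0 for 18, with a median of -0.17.

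The sign was the same on all arrays about as often as over the whole array. Members higher in phoxim RNA on all 3 arrays numbered 7, or 16.3%, against 18.2% of all probes. Members lower on all 3 arrays numbered 9, or 20.9%, against 17.1%. Among the 31 measured members without wording matches, 3 were higher and 6 lower on all 3 arrays. In deposited intensities, 5 members had every phoxim value above every control value, a share of 11.6% against 14% of all probes. For 1 member every phoxim value lay below every control value, a share of 2.33% against 1.61%.

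**Figure D1:**
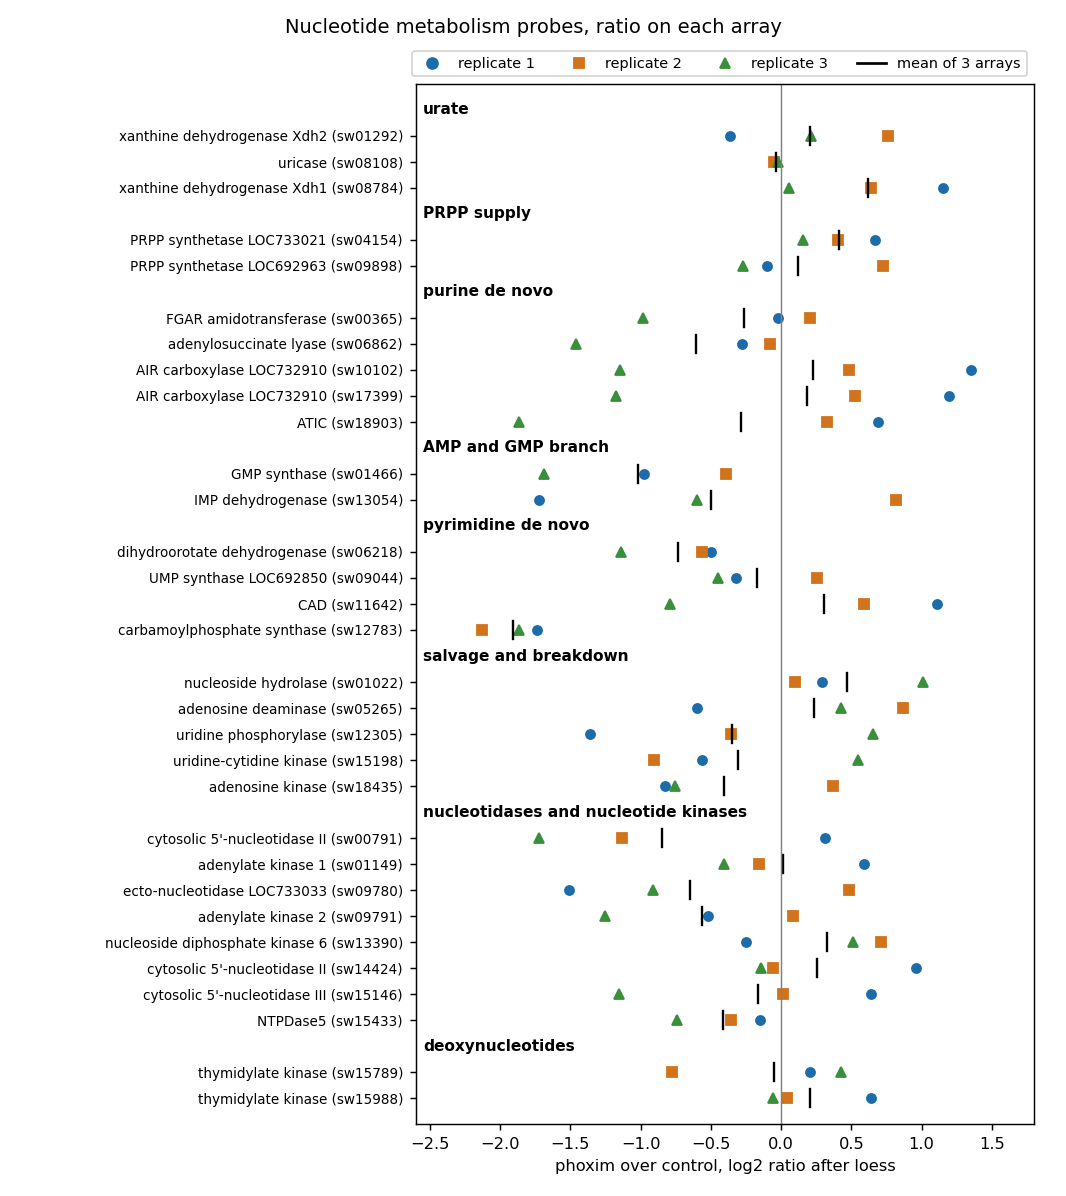
Log2 ratio of phoxim over control after loess (x axis) for the 31 measured probes of nucleotide metabolism, grouped by role (y axis). Symbols mark replicates 1, 2 and 3 and the black bar marks the mean of the 3 arrays. Carbamoylphosphate synthase (sw12783) lies between -2.13 and -1.74 on every array, and the purine de novo probes spread between -1.87 and 1.35.

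Uric acid synthesis was measured through both xanthine dehydrogenase genes, Xdh1 and Xdh2, which are neighbours in the RefSeq annotation with no gene between them. The probe for Xdh1 (sw08784) had intensities of 13415, 10357 and 12460 in phoxim RNA, against 6372, 5538 and 8251 in control RNA. Every phoxim value was above every control value, and the largest gap within an array was in replicate 1. After loess the log2 ratios were 1.16, 0.64 and 0.06, with a mean of 0.62 ± 0.55 (SD, n = 3). The mean did not pass limma's test (adjusted p = 0.52). The authors' deposited ratios gave a mean of 0.96, the labelled dye order 0.19 and the arrays without replicate 1 0.35, so its size differed with the processing and without replicate 1.

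Xdh2 did not follow the same order on the arrays. Its measured probe (sw01292) had 1199, 1802 and 1933 in phoxim RNA, against 1611, 703 and 1420 in control RNA, and the values overlapped. The log2 ratios were -0.36, 0.76 and 0.21, with a mean of 0.20 ± 0.56 (SD, n = 3) and limma's adjusted p = 0.85. Xdh1 was above Xdh2 by 1.52 on the log2 scale in replicate 1, and below it in replicates 2 and 3, where the differences were -0.12 and -0.16. A second Xdh2 probe (sw07040) had 48, 98 and 64 in phoxim RNA against 123, 0 and 107 in control RNA. It was not measured, because on replicate 2 neither RNA was above background.

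Uricase (LOC692784, sw08108), which oxidises uric acid, had 2971, 1093 and 1872 in phoxim RNA, against 3207, 763 and 1616 in control RNA. Its ratios were close to 0 on each array, at -0.04, -0.05 and -0.02. The mean of -0.04 ± 0.02 (SD, n = 3) had limma's adjusted p = 0.98. Its intensities in the same RNA differed between arrays by more than its ratios did.

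PRPP synthetase makes the sugar phosphate on which purines are built. The first gene (LOC733021, sw04154) had 9364, 7365 and 12044 in phoxim RNA, against 6236, 4512 and 7505 in control RNA. On each array the phoxim value was the higher one, though the highest control value passed the lowest phoxim value. The ratios were 0.67, 0.40 and 0.15, with a mean of 0.41 ± 0.26 (SD, n = 3, limma's adjusted p = 0.61). The second gene (LOC692963, sw09898) had ratios of -0.10, 0.73 and -0.27 and a mean of 0.12 ± 0.53 (SD, n = 3). The 2 probes did not share their order of arrays.

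**Figure D2:**
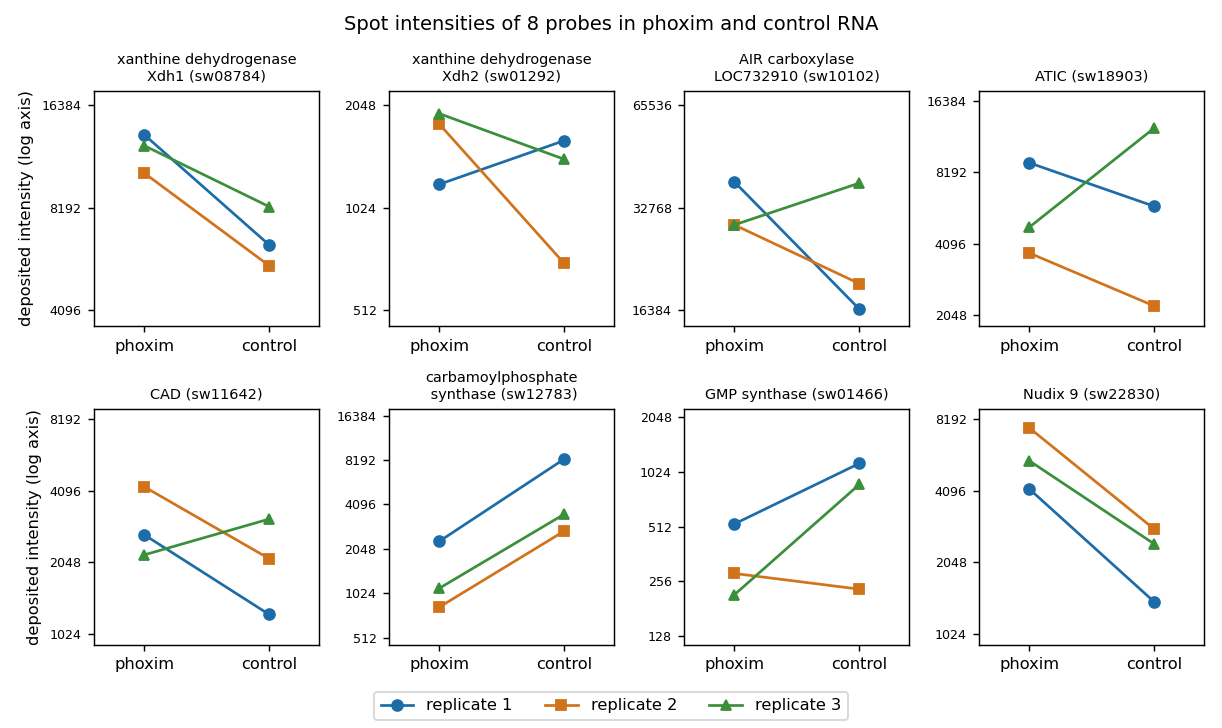
Deposited spot intensity (y axis, log scale, 1 panel per probe) of 8 probes in phoxim RNA and in control RNA, with a line joining the 2 values of each array. Xdh1 (sw08784) is higher in phoxim RNA on all 3 lines and carbamoylphosphate synthase (sw12783) lower on all 3, whereas the lines of ATIC (sw18903) and AIR carboxylase (sw10102) turn in replicate 3.

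The purine ring pathway was measured through 5 of its 11 probes, and all 5 were lower in phoxim RNA in replicate 3 than in replicates 1 and 2. Their log2 ratios ran from -1.87 to -0.98 in replicate 3, from -0.28 to 1.35 in replicate 1 and from -0.08 to 0.53 in replicate 2. The SD between arrays therefore exceeded the mean for every one of the 5, and limma's adjusted p was 0.56 or higher. The genes below come in the order of the pathway.

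FGAR amidotransferase (sw00365), which adds nitrogen from glutamine to the growing ring, had 2702, 1416 and 1816 in phoxim RNA, against 2863, 829 and 2999 in control RNA. The groups overlapped, and phoxim was lower in replicates 1 and 3 and higher in replicate 2. Its ratios of -0.02, 0.21 and -0.98 gave a mean of -0.27 ± 0.63 (SD, n = 3). AIR carboxylase (LOC732910), the step that adds carbon dioxide, had 2 probes with close values. The first (sw10102) had 39046, 29190 and 29179 in phoxim RNA, against 16524, 19627 and 38699 in control RNA. Phoxim was higher in replicates 1 and 2 and lower in replicate 3. Its ratios were 1.35, 0.48 and -1.14, with a mean of 0.23 ± 1.27 (SD, n = 3). The second probe (sw17399) gave 1.19, 0.53 and -1.18, so the turn in replicate 3 was seen in 2 separate spots of that array.

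Adenylosuccinate lyase (sw06862) acts in the ring pathway and again on the way to AMP. It had 585, 407 and 434 in phoxim RNA, against 734, 264 and 1250 in control RNA, and the groups overlapped. Its ratios were -0.28, -0.08 and -1.46, with a mean of -0.60 ± 0.75 (SD, n = 3). It was the only one of the 5 measured probes of the ring pathway below 0 on all 3 arrays, though by little in replicate 2. ATIC (sw18903) carries out the last steps to IMP, and had 8970, 3740 and 4808 in phoxim RNA, against 5882, 2237 and 12596 in control RNA. The highest of these 6 values was the control of replicate 3. Its ratios were 0.69, 0.33 and -1.87, with a mean of -0.28 ± 1.38 (SD, n = 3).

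The other purine ring probes were too dim to be tested. They were 3 probes for PRPP amidotransferase, which opens the pathway, 2 for GART and a second ATIC probe. The brightest was a GART probe (sw20606) with 432, 204 and 390 in phoxim RNA, against 369, 14 and 466 in control RNA. It fell short because neither RNA was above background in replicate 2.

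On the branches that follow IMP, GMP synthase (sw01466) had 529, 283 and 216 in phoxim RNA, against 1138, 232 and 873 in control RNA. The groups overlapped, and in replicate 2 the deposited phoxim value was the higher one but not above background. The ratios of -0.97, -0.39 and -1.69 had 1 sign, and their mean was -1.02 ± 0.65 (SD, n = 3). With limma the unadjusted p was 0.020 and the adjusted p 0.40. IMP dehydrogenase (sw13054), the step before it, had 328, 439 and 465 in phoxim RNA, against 1297, 119 and 737 in control RNA. Phoxim was lower in replicates 1 and 3 and higher in replicate 2, with ratios of -1.72, 0.81 and -0.60 and a mean of -0.50 ± 1.27 (SD, n = 3). All 3 probes for adenylosuccinate synthetase, on the AMP side, were too dim.

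**Figure D3:**
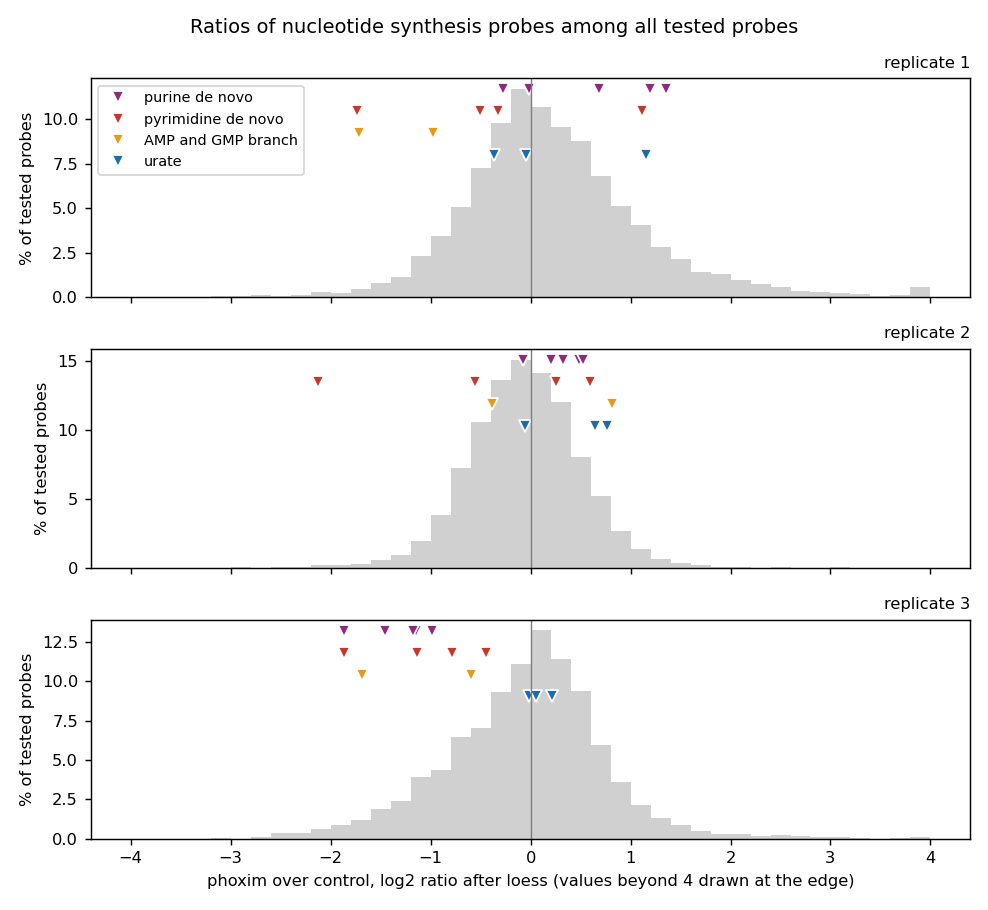
Histogram of the log2 ratios of all 6154 tested probes (x axis, ratio of phoxim over control; y axis, percent of probes), 1 panel per array, with triangles for members of 4 roles. In replicate 3 the purine de novo triangles lie between -1.87 and -0.98, on the low side of the histogram, and in replicates 1 and 2 they do not.

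A low value in replicate 3 was more frequent among the members than over all tested probes, but in some roles only. At least 2-fold lower in phoxim RNA in replicate 3 were 12 of 43 members, or 27.9%, against 11.7% of all tested probes. The 12 included 4 purine ring probes (2 of them for AIR carboxylase), GMP synthase, dihydroorotate dehydrogenase and 3 nucleotidases or nucleotide kinases. None was a urate, PRPP supply, salvage or deoxynucleotide probe. The replicate 3 medians of these roles were 0.06, -0.06, 0.55 and 0.18. In replicate 1 the share at least 2-fold lower was 9.3% of members against 5.8% of all probes, and in replicate 2 it was 4.65% against 4.5%. At least 2-fold higher were 16.3% of members in replicate 1, 4.65% in replicate 2 and 2.33% in replicate 3, against 16%, 3.07% and 6.43% of all probes. Higher in replicates 1 and 2 and lower in replicate 3 were 8 members, or 18.6%, against 6.84% of all probes. Both AIR carboxylase probes were among the 8, and so were the wording matches pseudouridine synthase 3 (sw17835) and Nudix 8 (sw09583). These wording matches and thymidylate kinase (sw15988) were near 0 in replicate 3, at -0.13, -0.20 and -0.06. These counts were drawn up after the low ratios of replicate 3 were seen.

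In pyrimidine synthesis, the probe with the smallest p of all members was described as a carbamoylphosphate synthase large subunit, by similarity to a protein of the cyanobacterium Nostoc punctiforme. It had no gene ID and no KEGG entry in the files. This probe (sw12783) had 2302, 825 and 1107 in phoxim RNA, against 8319, 2704 and 3519 in control RNA. Every phoxim value was below every control value, and all 6 values were above background. The ratios of -1.74, -2.13 and -1.87 gave a mean of -1.91 ± 0.20 (SD, n = 3), a ratio of 0.266 on the linear scale.

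By p it stood at rank 4 of the 6154 tested probes, with limma's unadjusted p = 0.00026 and adjusted p = 0.28. It was the 1 member at least 2-fold lower on all 3 arrays, a share of 2.33% against 0.309% of all probes, and also the 1 member at least 1.5-fold lower, against 1.64%. No member was at least 2-fold higher on all 3 arrays, against 0.699% of all probes. With the labelled dye order the mean was -0.49, since replicate 2 then had the other sign. In every other processing run it lay at -1.58 or lower.

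CAD (sw11642), the animal enzyme whose carbamoyl phosphate synthase, aspartate transcarbamylase and dihydroorotase activities open pyrimidine synthesis, had another pattern. Its values were 2673, 4258 and 2198 in phoxim RNA, against 1233, 2119 and 3112 in control RNA, and they overlapped. The ratios were 1.11, 0.59 and -0.79, with a mean of 0.31 ± 0.98 (SD, n = 3, limma's adjusted p = 0.82). The probe described as the large subunit alone and the CAD probe thus had opposite signs in replicates 1 and 2, and the same sign in replicate 3.

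Dihydroorotate dehydrogenase (sw06218), which makes orotate, had 449, 262 and 262 in phoxim RNA, against 678, 249 and 689 in control RNA. The groups overlapped, and the phoxim value of replicate 2 was again slightly the higher and not above background. The ratios were -0.50, -0.56 and -1.14, with a mean of -0.73 ± 0.35 (SD, n = 3), an unadjusted p of 0.040 and limma's adjusted p of 0.44. UMP synthase (LOC692850, sw09044), which ends the pathway, had 813, 749 and 1120 in phoxim RNA, against 1058, 392 and 1381 in control RNA. The groups overlapped, and the ratios of -0.32, 0.26 and -0.45 gave a mean of -0.17 ± 0.38 (SD, n = 3). A second probe described as UMP synthase (sw00241) was too dim.

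Salvage enzymes recover bases and nucleosides, and 5 of their 9 probes were measured. None was at an unadjusted p under 0.05, and the mean was above 0 for 2 and below 0 for 3. The only one with 1 sign on all arrays was a nucleoside hydrolase (sw01022), named by similarity to a bacterial enzyme, with 215, 384 and 316 in phoxim RNA against 178, 210 and 159 in control RNA. Every phoxim value was above every control value, but control RNA was above background on 1 array only. Its ratios were 0.29, 0.10 and 1.01, with a mean of 0.47 ± 0.48 (SD, n = 3, limma's adjusted p = 0.60). Adenosine deaminase (sw05265), which turns adenosine into inosine, gave -0.60, 0.87 and 0.43. Adenosine kinase (sw18435), which phosphorylates adenosine to AMP, gave -0.82, 0.37 and -0.76. For both, replicates 1 and 2 had opposite signs. Uridine phosphorylase (sw12305) and uridine-cytidine kinase (sw15198) were below 0 in replicates 1 and 2 and above 0 in replicate 3. Adenine phosphoribosyltransferase, which recovers adenine, and Adgf, the adenosine deaminase-related growth factor, were too dim.

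Nucleotidases remove a phosphate from nucleotides, and adenylate and nucleoside diphosphate kinases pass phosphates between them. Of these 18 probes, 8 were measured, none at an unadjusted p under 0.05. The mean was above 0 for 3 and below 0 for 5. A cytosolic 5'-nucleotidase II probe (sw00791) had 1198, 426 and 467 in phoxim RNA, against 970, 654 and 1582 in control RNA. Phoxim was the higher in replicate 1 and the lower in replicates 2 and 3, with ratios of 0.31, -1.13 and -1.72 and a mean of -0.85 ± 1.05 (SD, n = 3, limma's adjusted p = 0.52). A second probe of that name (sw14424) had ratios of 0.96, -0.06 and -0.15, so the probes gave means of opposite sign. In the labelled dye order the mean of the first was -0.09, without replicate 1 it was -1.43 and without replicate 3 -0.41. Without replicate 1 the second probe had a mean of -0.10, and the signs were then the same.

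Of the other nucleotidases, NTPDase5 (sw15433), which cleaves nucleoside diphosphates, was below 0 on all 3 arrays at -0.15, -0.36 and -0.74. Its intensities were low, at 73, 262 and 63 in phoxim RNA against 129, 206 and 217 in control RNA, and each RNA was above background on 2 arrays. Adenylate kinase 2 (sw09791) was brighter, with 10209, 11330 and 10242 in phoxim RNA, against 15710, 9199 and 16422 in control RNA. Its phoxim values hardly differed between arrays, whereas its control value was low in replicate 2, and the ratios were -0.52, 0.09 and -1.25. The ecto-nucleotidase LOC733033 (sw09780), of the cell surface, gave -1.51, 0.48 and -0.91. Its order of arrays was that of IMP dehydrogenase and adenosine kinase: below 0 in replicates 1 and 3 and above 0 in replicate 2. That order held for 9 members, or 20.9%, against 9.51% of all probes, a count drawn up after the order was seen in these ratios. By the header, replicate 2 is also the array with the other dye order, so a dye effect cannot be told apart from this order.

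Enzymes that make deoxynucleotides, the building blocks of DNA, were mostly too dim to be tested. Only 2 of their 12 probes were measured, both described as thymidylate kinase, with ratios of 0.20, -0.78 and 0.42 (sw15789) and of 0.64, 0.04 and -0.06 (sw15988). Both probes for the large subunit of ribonucleotide reductase, which makes deoxynucleotides from ribonucleotides, were at background in both RNAs on all arrays. One of them had 8, 73 and 3 in phoxim RNA, against 25, 0 and 36 in control RNA (sw16645). Thymidylate synthase (Tyms, sw16054), which makes dTMP, had 93, 136 and 149 in phoxim RNA, against 74, 32 and 172 in control RNA, and was above background in 2 of the 6 channels. A small subunit probe of the reductase (sw04795) had 128, 196 and 107 in phoxim RNA, against 213, 46 and 183 in control RNA. A deoxynucleoside kinase probe (LOC692569, sw03560), of an enzyme that phosphorylates deoxynucleosides, had 189, 264 and 211 in phoxim RNA, against 251, 81 and 290 in control RNA. Both were above background in 4 of the 6 channels and missed the test because neither RNA was above background in replicate 2.

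Among the 21 probes matched by wording, 12 were measured. Over all tested probes, 10.9% were at an unadjusted p under 0.05 with limma, and 6.13% were so and higher in phoxim RNA. Of the 12, 3 were at that p, all higher in phoxim RNA. Both probes described as Nudix 9, an enzyme that in mammals cleaves ADP-ribose in mitochondria, were among them. The first (sw22830) had 4163, 7529 and 5473 in phoxim RNA, against 1391, 2818 and 2441 in control RNA. Its ratios were 1.58, 1.07 and 0.79, with a mean of 1.15 ± 0.40 (SD, n = 3). The second (sw20966) had 2435, 2898 and 3459 in phoxim RNA, against 1172, 989 and 1576 in control RNA. For both probes every phoxim value was above every control value, and all values were above background.

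The ratios of the second Nudix 9 probe were 1.05, 1.02 and 0.82, with a mean of 0.96 ± 0.12 (SD, n = 3). With limma the probes had unadjusted p-values of 0.0065 (sw22830) and 0.0096 (sw20966), at ranks 114 and 160 of 6154. Their adjusted p-values were 0.33 and 0.37. At least 1.5-fold higher on all 3 arrays were 3 members, or 6.98%, against 2.19% of all probes, and these were the Nudix 9 probes and a probe described as rRNA methyltransferase 3. With the labelled dye order the means of the Nudix 9 probes were 0.43 and 0.28.

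The probe for rRNA methyltransferase 3 (sw06797), which by its description methylates ribosomal RNA, had 4344, 3863 and 5740 in phoxim RNA, against 1035, 1828 and 2681 in control RNA. Every phoxim value was above every control value. Its ratios were 2.03, 0.64 and 0.71, with a mean of 1.13 ± 0.79 (SD, n = 3), an unadjusted p of 0.018 and limma's adjusted p of 0.39. Without replicate 1 the mean was 0.68. In replicate 1 the muscle markers were also highest relative to control, and 16% of all tested probes were at least 2-fold higher. A link to muscle was not tested.

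Of the 12 measured wording matches, 3 were lower on all 3 arrays, against 17.1% of all probes. None of these 3 was at an unadjusted p under 0.05 with limma. Nudix 4 (sw13367), which in mammals cleaves diphosphoinositol phosphates, had 4189, 2177 and 2727 in phoxim RNA, against 5899, 2015 and 5971 in control RNA. Its groups overlapped, and the ratios were -0.41, -0.34 and -1.49 with a mean of -0.74 ± 0.65 (SD, n = 3, limma's adjusted p = 0.48). Dihydrouridine synthase 2 (sw00927) gave -0.65, -0.03 and -1.17, and a sugar epimerase (sw10878) gave -0.24, -0.30 and -0.71. Dihydrouridine synthase 3 (sw05506) was higher on all 3 arrays, at 0.65, 0.61 and 0.01. These synthases modify uridine in tRNA and do not make nucleotides.

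Enzymes that feed or drain the pathway but lay outside the rule on wording filled 61 further probes, of which 24 were measured. None had an adjusted p under 0.05 with limma. At an unadjusted p under 0.05 were 2 of the 24, against 10.9% of all tested probes. The mean was above 0 for 9 and below 0 for 15. The largest group was the supply of one-carbon units and glutamine, with 12 of 16 probes measured, 3 with a mean above 0 and 9 below. Its medians were 0.01, -0.04 and -1.08 in replicates 1, 2 and 3, and 6 of the 12 were at least 2-fold lower in phoxim RNA in replicate 3, against 11.7% of all probes. The 6 shared descriptions in pairs: serine hydroxymethyltransferase (sw03328, sw11858), C1-tetrahydrofolate synthase (sw05452, sw11215) and glutamine synthetase (sw07091, sw21168). Pyrimidine breakdown, the path from uracil to beta-alanine, had 5 of 8 probes measured, all with a mean below 0. Its medians were 0.12, 0.06 and -1.11, and 3 of the 5 were at least 2-fold lower in replicate 3. These were both dihydropyrimidine dehydrogenase probes, at -1.94 (sw18510) and -1.11 (sw20520), and a beta-ureidopropionase probe at -1.34 (sw08667). Low ratios in replicate 3 were thus also seen outside the purine ring.

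Serine hydroxymethyltransferase, which makes the one-carbon units that the purine ring takes up, had 2 measured probes. The first (sw03328) had 8601, 4916 and 3557 in phoxim RNA, against 18414, 4903 and 13981 in control RNA. Its ratios were -0.99, -0.31 and -2.43, with a mean of -1.25 ± 1.08 (SD, n = 3), an unadjusted p of 0.025 and limma's adjusted p of 0.42. The second (LOC692975, sw11858) gave -0.60, 0.12 and -1.87. Replicate 3 was the lowest array for both.

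A C1-tetrahydrofolate synthase probe (sw00616), of the enzyme that interconverts folate-bound carbon units, was lower on all 3 arrays at -0.64, -0.19 and -0.26. It was dim, with 128, 186 and 64 in phoxim RNA against 274, 107 and 148 in control RNA. Each RNA was above background on 2 arrays. Brighter probes of the same description changed sign between arrays, at -0.97, 0.87 and -2.19 (sw05452) and 0.91, -0.54 and -1.92 (sw11215). Methenyltetrahydrofolate synthetase (sw03770) was higher on all 3 at 0.39, 0.22 and 0.18, and so was methylenetetrahydrofolate reductase (sw17049) at 0.40, 0.43 and 0.08. A probe for the DNA repair protein REV1 (sw14409), matched by wording only, gave 1.59, 0.10 and 1.28. It was dim too, with 345, 290 and 444 in phoxim RNA against 70, 147 and 173 in control RNA. Phoxim RNA was above background on 2 arrays and control RNA on 1. With limma its unadjusted p was 0.031 and its adjusted p 0.43. The probes sw00616, sw03770, sw17049 and sw14409 and the first serine hydroxymethyltransferase probe were the 5 outside the rule with 1 sign on all arrays. Of the 24 measured, 3 were higher and 2 lower on all 3 arrays, against 18.2% and 17.1% of all probes.

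Around uric acid itself, allantoinase (sw01725), which acts after uricase, had 4082, 3335 and 3907 in phoxim RNA, against 1432, 1795 and 3160 in control RNA. Every phoxim value was above every control value, but the ratios were 1.51, 0.45 and -0.05, with a mean of 0.64 ± 0.80 (SD, n = 3, limma's adjusted p = 0.56). Their order of arrays, falling from replicate 1 to replicate 3, was that of Xdh1. It was also that of PRPP synthetase LOC733021, AIR carboxylase, ATIC and CAD, so it was not particular to uric acid. Over all tested probes, 16% were at least 2-fold higher in replicate 1 and 6.43% in replicate 3. The share of all probes with this order was not counted. The sulfurase that activates the molybdenum cofactor of xanthine dehydrogenase (LOC692954) had 2 measured probes. Their ratios were -0.39, 0.43 and 0.14 (sw01720) and -0.75, 0.39 and 0.80 (sw07609). The means of 0.06 and 0.14 thus came from arrays of opposite sign. All 6 probes for ABC transporters of subfamily G, the class that in flies includes the pigment precursor transporter White, were too dim.

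**Figure D4:**
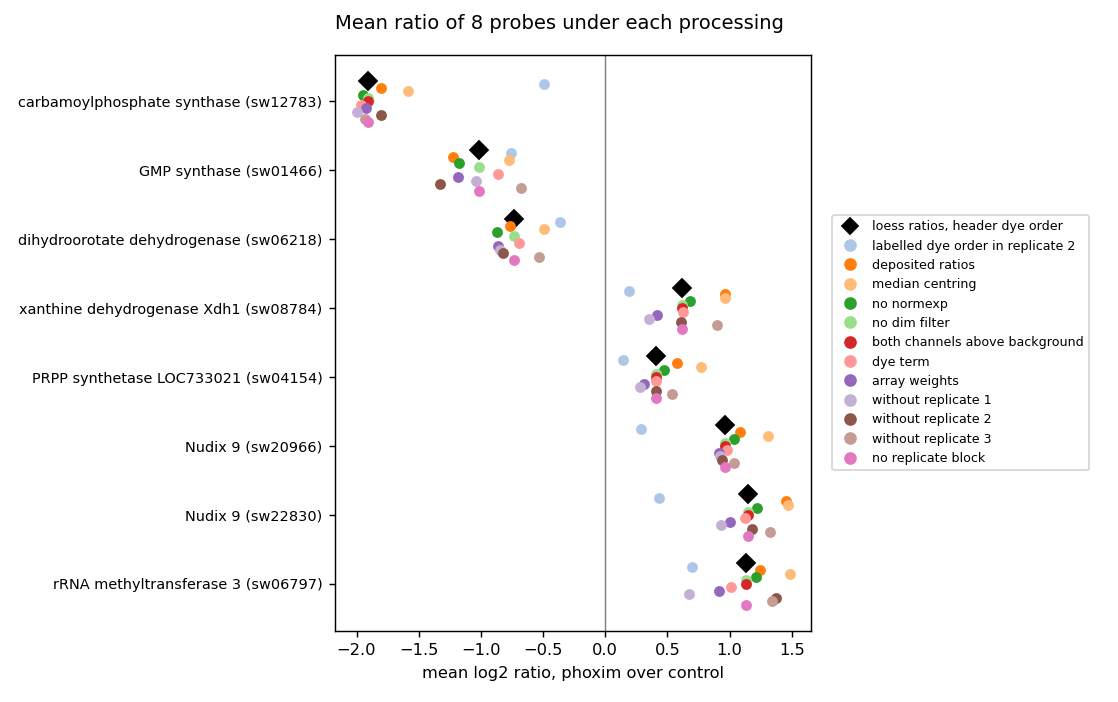
Mean log2 ratio of phoxim over control (x axis) of 8 probes (y axis) under each processing, with the black diamond for loess ratios in the header's dye order and coloured dots for the up to 12 others. For all 8 probes every mean stays on 1 side of 0. Each had 1 sign on every array, so leaving out a replicate, array weights or the filters on dim probes could not change it. The labelled dye order moves carbamoylphosphate synthase (sw12783) to -0.49 and Xdh1 (sw08784) to 0.19. Among the 43 measured members, the mean of 13 changed sign in that order, and that of 4 to 8 with a replicate left out.

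The ratios of the 3 arrays were loosely related. Across the 43 members, as a description of points that share 3 arrays, the log2 ratios correlated at 0.38 between replicates 1 and 2, at 0.26 between replicates 1 and 3 and at 0.40 between replicates 2 and 3. Over all tested probes the values were 0.03, 0.355 and 0.27.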

How the data were processed

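Two-colour arrays of 24288 spots were read, 1 per replicate. Intensity values of both dyes were used as deposited, and since blank spots lay near 0 and some values below 0, they were treated as background-subtracted. For the scanner, image software and the authors' normalization, the sources used here give no name. The authors' ratio divides phoxim by control, per the file headers. The deposited log2 value table differed from the log2 of these ratios by at most 5e-09. The design had foreseen foreground and background signals. Instead, normexp (offset 50) was applied to the deposited intensities, followed by loess within each array with control spots at weight 0 (limma 3.58.1, R 4.3.3).

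A probe was tested if, on each array, phoxim or control RNA passed the 95th percentile of that channel's negative controls. That percentile was 46.9, 307 and 31.8 for phoxim RNA and 188, 101 and 176 for control RNA in replicates 1, 2 and 3. The mean ratio was tested against 0 by a two-sided limma test (lmFit, eBayes), adjusted by Benjamini-Hochberg over all 6154 probes, at a threshold of 0.05. No measured member reached 99% of its channel's maximum, the level taken as saturation. Pairing comes from the array itself, which holds phoxim and control RNA of 1 number and acts as the block.

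Members and lists were chosen with earlier results of these data known. Because 43 members were measured, the naming rule took those with 1 sign on all arrays, those of the urate, purine and pyrimidine synthesis roles and the 10 smallest p-values. The other members are named to complete a role, after their values were seen, as were the groups outside the rule. Roles were assigned by hand from the descriptions. No sequence is printed, since the files gave a probe sequence for 0 of the 88 probes. All 13 gene IDs matched the RefSeq annotation. Alternatives were the labelled dye order, the deposited ratios, median centring, no normexp, other filters on dim probes, a dye term, array weights, each replicate left out and no block.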

Additional observations from a re-analysis of the deposited data

How the results depend on the processing

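No processing gave a probe an adjusted p under 0.05 with limma, and the lowest adjusted p of any probe was 0.097 (median centring) to 0.79 (dye term). At an unadjusted p under 0.05, the count over all probes (673) was 297 in the labelled dye order, 1869 without the filter on dim probes, 349 with both channels above background and 376 with a dye term, and 332 to 708 with a replicate left out. The lowest of these was without replicate 3. Among members the count of 6 was 2 in the labelled order and 10 with array weights, and 4 to 7 with a replicate left out. Members with a mean above 0 (20 of 43) numbered 13 in the labelled order and 26 with median centring, and 16 to 24 with a replicate left out. Median centring, which centres each array on the median of all gene probes, dim ones included, put the median of the tested probes at 0.24. After loess it was 0.00. With median centring, 21 of 43 members lay above the median of the tested probes. The mean of 13 members changed sign in the labelled order, that of 4 with the deposited ratios, of 6 with median centring, of 7 with array weights and of 4 to 8 with a replicate left out. The cause was not tested. Without the replicate block, 563 probes and 5 members had an unadjusted p under 0.05, and the pairing changed no call. Signal over background limits 45 of the 88 probes.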
